A study of Mus musculus with 6 samples.

Results

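Translation initiation and elongation factors are the proteins that bring ribosomes to messenger RNA, find the start codon and carry the growing chain forward. The genes described here were the protein-coding genes in the GENCODE M21 annotation whose symbol begins with Eif or Eef followed by a digit, without the sex-chromosome pair Eif2s3x and Eif2s3y and without Eif1ax. The annotation held 65 such genes, and all 65 were among the 24191 genes of the deposited table. They comprise 52 Eif genes and 13 Eef genes. PolyA RNA was sequenced from 3 libraries of Mettl5 -/- (Mettl5 KO) and 3 libraries of wild-type (WT) mouse embryonic stem cells of the J1 strain, both kept in serum and LIF for 7 days beforehand. METTL5 is an enzyme of ribosomal RNA modification that makes N6-methyladenosine in the small-subunit RNA, and the study concerned its part in pluripotency and developmental programmes. The labels do not say whether replicates were separate cultures, whether the knockout was 1 clone or several, or which part of the gene was altered, so a difference between genotypes cannot be told apart from a difference between these lines, and p-values measure only the spread between these libraries.

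Initiation starts when eIF2 carries the initiator tRNA to the small ribosomal subunit with eIF1, eIF1A, eIF3 and eIF5. The cap-binding complex eIF4F, made of the cap-binder eIF4E, the scaffold eIF4G and the helicase eIF4A, brings this assembly to the messenger RNA. After subunit joining, eEF1A delivers aminoacyl-tRNAs, the eEF1B complex recharges eEF1A with GTP, and eEF2 moves the ribosome by a codon. Phosphorylation of eIF2 alpha and the eIF4E-binding proteins (4E-BPs) are the main brakes on initiation, and embryonic stem cells are known for low protein synthesis compared with their differentiated progeny.

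Both deposited quantities were used. The first, scaled reads, carries the test, and its fold changes are given as Mettl5 KO minus WT on the log2(scaled reads + 1) scale with their standard error (SE). The second, called the TPM scale, is a TPM value that the submitters rescaled, is corrected for gene length and gives the levels. A gene was called where limma's Benjamini-Hochberg adjusted p over all 24183 genes tested was under 0.05. The 2 quantities were scaled differently between libraries, so small fold changes can differ from the levels beside them. Each call was also made under 16 other settings. Among them were libraries brought to equal totals, TMM factors (a trimmed mean of gene ratios) and the TPM column in place of scaled reads. A further setting, chromosome centring, set each chromosome's median level to that of the library. Another, the chromosome shift, moved each chromosome by the median difference of its genes from WT. Centring acts on median levels, so it can move a chromosome by more than the median difference of its genes. Scaled reads summed to 51500000 to 51830000 in Mettl5 KO and 46077000 to 46541000 in WT libraries, and the TPM scale to 1019930 to 1022470 and 969840 to 978170. Read depth itself is not in the table, so no counting interval is given. Mettl5, the targeted gene, stood at 3.65, 3.58 and 3.32 on the TPM scale in Mettl5 KO libraries, against 50.3, 48.6 and 48.7 in WT libraries. Both genotypes had all 10 embryonic stem cell markers checked at a TPM-scale level of at least 1. In Mettl5 KO 2 of them were higher and 7 lower, where 33.6% of all genes tested were higher and 28.9% lower. The lower ones were Zfp42 (log2 fold change -1.24), Klf4 (-1.05), Esrrb (-0.88), Sox2 (-0.58), Utf1 (-0.52), Tdgf1 (-0.46) and Pou5f1 (-0.09). Dppa5a (0.31) and Sall4 (0.47) were higher, and Nanog (0.04) was not called. Zfp42 is on chromosome 8 and had -0.88 with the chromosome shift, still called lower. Nanog is on chromosome 6. It was called lower at equal totals (-0.12) and higher with chromosome centring (0.37) and the chromosome shift (0.32). The 16 feeder fibroblast markers summed to 331 to 346 in Mettl5 KO, most of it Vim (294 ± 7.50, SD, n = 3), against 63.2 to 73.3 in WT libraries. Of these markers 13 were higher and 3 lower, the lower ones being Thy1 (log2 fold change -1.07), Pdgfra (-1.02) and Col6a2 (-0.32). A level of at least 1 was reached by 9 of the 16 in Mettl5 KO, against 4 in WT. The part of these marker differences in the factor genes was not tested. In bulk RNA, fewer cells of a type and less RNA per cell cannot be told apart.

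Most factor genes changed by small amounts, and more of them upward. All 65 were tested. In Mettl5 KO, 40 were higher (61.5%), 12 were lower (18.5%) and 13 were not called, where 33.6% of all genes tested were higher and 28.9% lower. The share called in either direction was 80.0% of factor genes and 62.6% of all genes. Their median log2 fold change was 0.16, against 0.00 over all genes tested. Large changes were few: 9 factor genes rose by at least 0.5 on the log2 scale and 2 fell by as much, where 20.2% and 19.2% of all genes did so. The counts of higher and lower calls depended on how libraries were scaled. Rescaling every library to the same total moved the median of all genes to -0.15 and that of the factor genes to 0.01. The factor genes thus stayed above all genes by median. Then 25 factor genes were higher and 22 lower, with 26.1% and 37.8% of all genes. Factor genes are abundant, with a median level of 144 on the TPM scale against 2.72 over all genes.

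**Figure D1:**
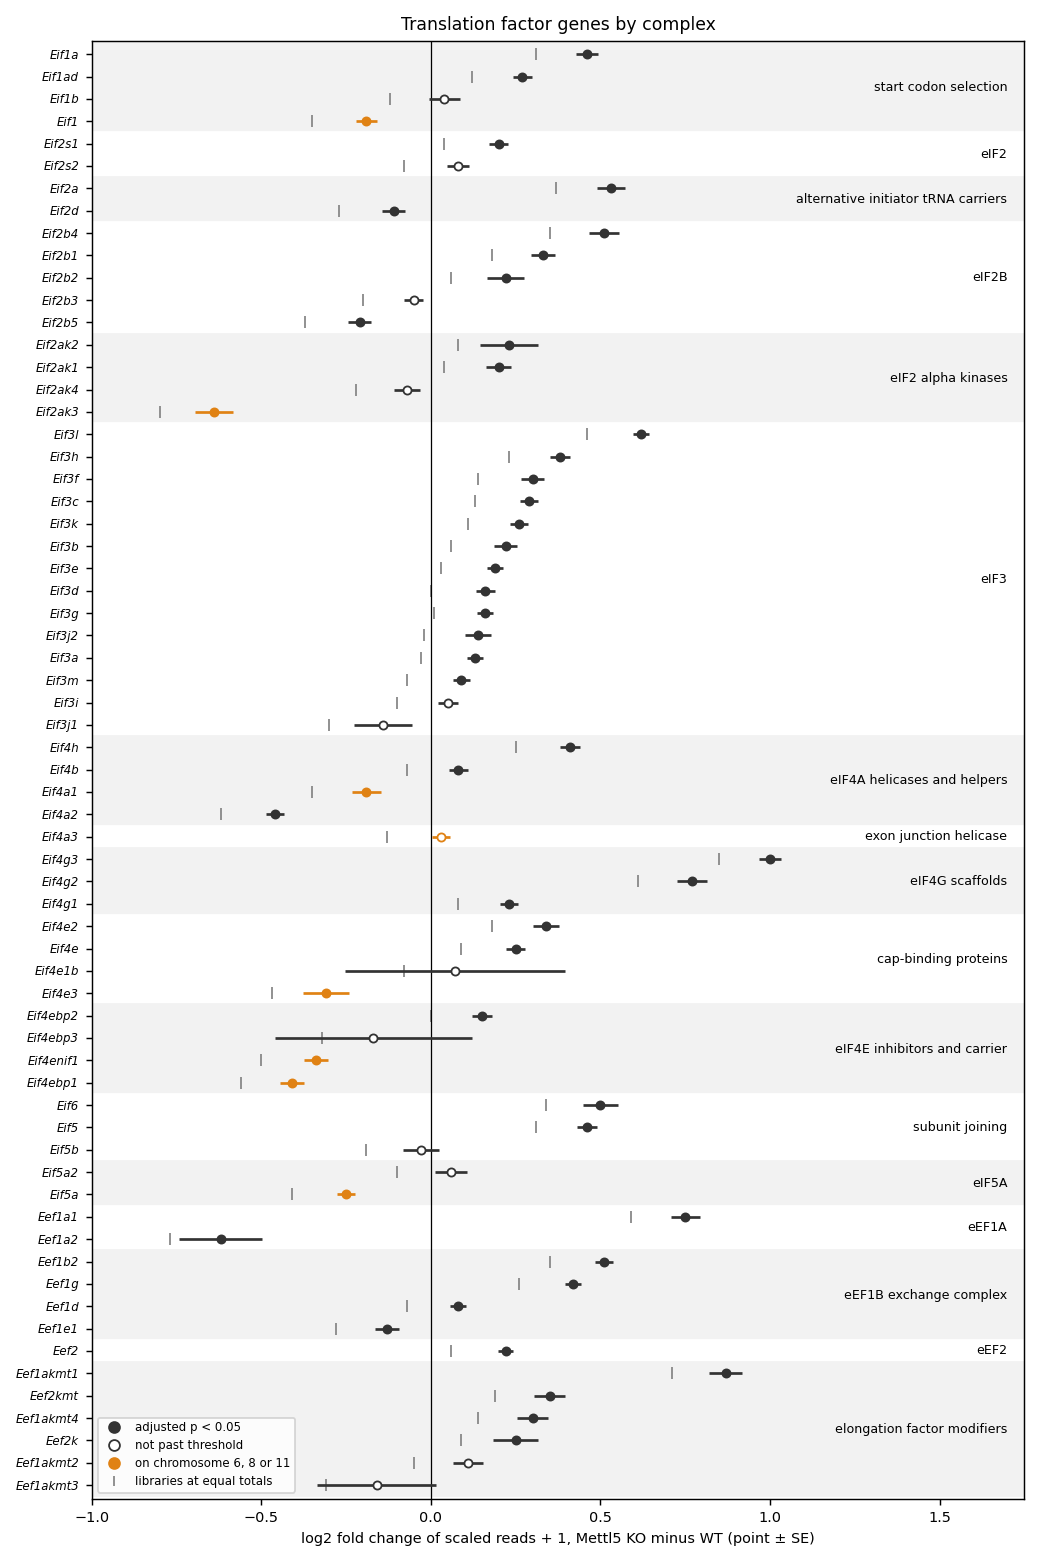
Log2 fold change (Mettl5 KO minus WT, scaled reads + 1) with its SE for each of the 65 factor genes, grouped by complex; filled points passed adjusted p under 0.05, orange points lie on chromosomes 6, 8 or 11, and grey ticks give the value with libraries at equal totals. Eif4g3 stands highest at 1.00 and Eif2ak3 lowest at -0.64, and 40 genes are called higher and 12 lower, against 25 and 22 at equal totals.

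Elongation factor genes summed to a larger share of the transcriptome in Mettl5 KO, and initiation factor genes to a slightly smaller one. The 13 Eef genes made up 1.63%, 1.64% and 1.65% of all TPM in Mettl5 KO libraries, against 1.20%, 1.15% and 1.23% in WT libraries. The 52 Eif genes made up 1.23%, 1.21% and 1.22% in Mettl5 KO, against 1.31%, 1.28% and 1.29% in WT. These shares do not depend on how libraries were scaled, and the groups did not overlap in either case. The two-sided exact permutation p was 0.100 for both, the smallest that 3 against 3 libraries allow. Eef1a1 alone gave most of the Eef difference. Without it the other 12 Eef genes made up 0.599% ± 0.00438 in Mettl5 KO and 0.513% ± 0.00507 in WT (SD, n = 3 each, exact permutation p = 0.100). The lower Eif share came with Eif1, Eif4a1, Eif4a2 and Eif5a, of which all but Eif4a2 are on chromosome 11. These 4 were all called lower and were chosen after their values were seen. Without them the other 48 Eif genes made up 0.804% ± 0.00324 in Mettl5 KO and 0.749% ± 0.00288 in WT (SD, n = 3 each). Leaving out lower genes favours a rise in the rest, so no test is given for it. By count, 31 of the 52 Eif genes were higher and 10 lower, or 18 and 19 at equal totals.

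Eef1a1 (ENSMUSG00000037742, GRCm38 chromosome 9, 78478449 to 78489151, minus strand) encodes the general form of eEF1A and was the most abundant factor gene. Its level was 10463, 10664 and 10795 on the TPM scale in Mettl5 KO libraries, against 6673, 6247 and 6987 in WT libraries. Every Mettl5 KO library stood above every WT library, which gave a log2 fold change of 0.75 (SE 0.0421, limma adjusted p 3.34e-07). It was called higher under all 16 alternative settings tried. Eef1a2 encodes the form found in adult neurons and muscle, and had a low level here. It stood at 0.674, 0.695 and 0.681 in Mettl5 KO libraries, against 0.970, 1.08 and 1.24 in WT libraries, with a log2 fold change of -0.62 (SE 0.122, limma adjusted p 0.00165). The groups did not overlap, and both genotypes used Eef1a1 almost alone: Eef1a2 amounted to 0.00642% of Eef1a1 in Mettl5 KO and 0.0165% in WT.

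All 3 subunits of the eEF1B complex, which exchanges GDP for GTP on eEF1A, were called higher, although Eef1d was called lower at equal totals. Eef1b2, the catalytic eEF1B alpha subunit, stood at 2949.8, 2986 and 2907 on the TPM scale in Mettl5 KO libraries, against 2166, 2161 and 2234 in WT libraries (log2 fold change 0.51, SE 0.0270, limma adjusted p 2.40e-07). Eef1g, the structural gamma subunit, stood at 1148, 1121 and 1126 in Mettl5 KO, against 912, 878 and 882 in WT (log2 fold change 0.42). Both genes separated the genotypes completely and were called higher under all 16 alternatives. Eef1d, the other exchange subunit, differed little, at 835, 813 and 808 in Mettl5 KO and 816, 825 and 794 in WT. Its log2 fold change of 0.08 (limma adjusted p 0.0137) lost its call with the TPM column (0.01), TMM scaling (0.06), the chromosome shift (0.02) and without WT replicate 3 (0.07), and turned to -0.07 at equal totals. Eef1e1, also known as AIMP3, shares a fold with these subunits but belongs to the multi-tRNA synthetase complex. It averaged 111 ± 2.67 in Mettl5 KO and 127 ± 4.30 in WT (SD, n = 3 each), a log2 fold change of -0.13 that was called lower under every alternative.

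Eef2, the translocase, stood at 946, 945 and 953 on the TPM scale in Mettl5 KO libraries, against 861, 856 and 859 in WT libraries. The groups did not overlap, for a log2 fold change of 0.22 (SE 0.0220, limma adjusted p 1.69e-05), or 0.06 at equal totals, where it was still called. Eef2k, the kinase that inactivates eEF2, averaged 8.77 ± 0.221 in Mettl5 KO and 7.79 ± 0.218 in WT (log2 fold change 0.25, limma adjusted p 0.0102), a call lost at equal totals (0.09) and with chromosome centring (0.10).

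Among the enzymes that methylate elongation factors, Eef1akmt1, a lysine methyltransferase of eEF1A, showed the second largest rise of all factor genes on scaled reads, though Eef1a1 exceeded it with chromosome centring (0.63 for Eef1akmt1, 0.79 for Eef1a1). It stood at 81.7, 77.8 and 84.8 on the TPM scale in Mettl5 KO libraries, against 49.1, 44.3 and 47.6 in WT libraries (log2 fold change 0.87, SE 0.0487, limma adjusted p 3.37e-07). All Mettl5 KO libraries stood well above all WT libraries. Eef1akmt4 and Eef2kmt, which act on eEF1A and eEF2, rose by 0.30 and 0.35, calls that held at equal totals and were lost with chromosome centring (0.04 and 0.10). Eef1akmt2 (log2 fold change 0.11, limma adjusted p 0.0617) and Eef1akmt3, at 0.271 ± 0.0420 in Mettl5 KO and 0.312 ± 0.0220 in WT, were not called.

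The 3 eIF4G scaffolds were all higher in Mettl5 KO, and the largest rise of any factor gene was among them. Eif4g3, which encodes eIF4GII, stood at 20.3, 21.1 and 21.0 on the TPM scale in Mettl5 KO libraries, against 10.9, 10.9 and 10.4 in WT libraries. The groups lay far apart, with a log2 fold change of 1.00 (SE 0.0332, limma adjusted p 1.04e-08). Eif4g2, which encodes DAP5, a scaffold that lacks the eIF4E-binding part and serves cap-independent initiation, stood at 588, 656 and 621 in Mettl5 KO, against 379, 381 and 400.2 in WT (log2 fold change 0.77, SE 0.0455, limma adjusted p 4.93e-07). Human DAP5 is known to be needed for stem cells to differentiate. Eif4g1, the main scaffold eIF4GI, differed less, at 201, 211 and 206 in Mettl5 KO and 182, 186 and 183 in WT (log2 fold change 0.23, or 0.08 at equal totals and -0.02 with chromosome centring, where its call was lost). Eif4g3 and Eif4g2 were called higher under all 16 alternatives.

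The makeup of the scaffold pool differed within each library. Eif4g3 amounted to 10.1% of Eif4g1 in Mettl5 KO and 5.84% in WT, and Eif4g2 to 301% and 210.4%. The log2 ratio of Eif4g3 to Eif4g1 was -3.31, -3.32 and -3.30 in Mettl5 KO libraries, against -4.06, -4.10 and -4.13 in WT libraries, a difference of 0.79. The log2 ratio of Eif4g2 to Eif4g1 was 1.55, 1.64 and 1.59 in Mettl5 KO, against 1.06, 1.03 and 1.13 in WT, a difference of 0.52. Neither ratio overlapped between genotypes.

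**Figure D2:**
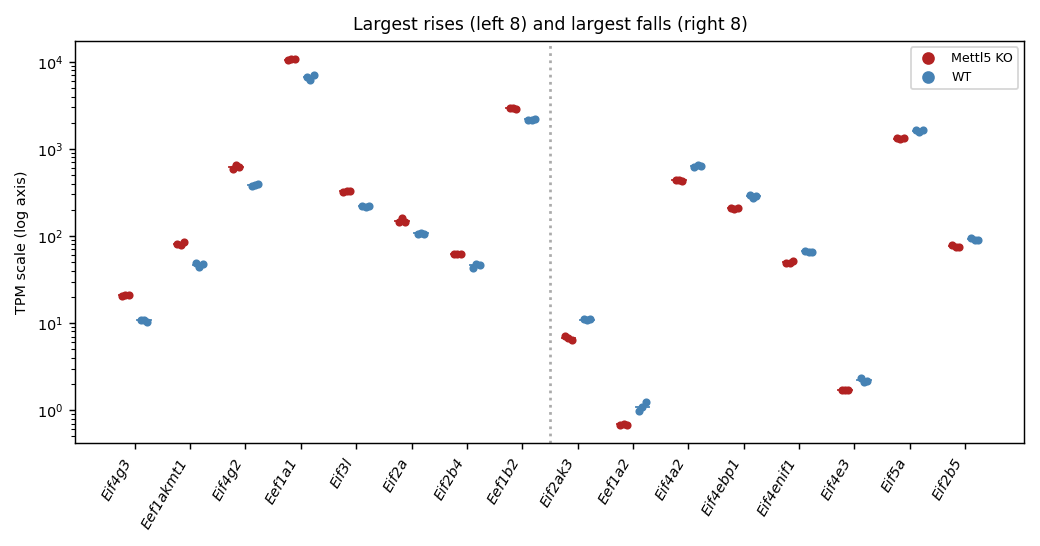
TPM-scale level (log axis) in each library for the 8 largest rises and the 8 largest falls among called factor genes with a mean of at least 1 in the higher genotype; each point is a library, Mettl5 KO in red and WT in blue, with bars at the mean of 3. In none of the 16 genes do the genotypes overlap; Eif4ebp1, Eif4enif1, Eif4e3 and Eif5a lie on chromosomes 6, 8 or 11, and their lower values were no longer called, or turned, when values were set relative to the chromosome, while Eif2ak3, on chromosome 6, was still called lower.

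The helicases of eIF4F were lower, while a helper was higher. Eif4a2 stood at 439, 439.5 and 434 on the TPM scale in Mettl5 KO libraries, against 617, 653 and 629.6 in WT libraries (log2 fold change -0.46, SE 0.0269, limma adjusted p 4.46e-07). The groups were far apart and the fall was called under every alternative. Eif4a1, the main helicase and the most abundant initiation factor gene, stood at 1742, 1567 and 1630.1 in Mettl5 KO, against 2082, 1902 and 1949 in WT (log2 fold change -0.19, limma adjusted p 0.00361). Eif4a1 is on chromosome 11, and its fold change turned to 0.24 with chromosome centring and 0.21 with the chromosome shift, both called higher. The log2 ratio of Eif4a2 to Eif4a1 was -1.99, -1.83 and -1.91 in Mettl5 KO libraries, against -1.75, -1.54 and -1.63 in WT libraries. Eif4h, an RNA-binding protein that stimulates eIF4A, averaged 211 ± 6.76 in Mettl5 KO and 165 ± 3.47 in WT (SD, n = 3 each, log2 fold change 0.41) and was called higher under every alternative. Eif4b, the related stimulator, was close to level, at 300.3 ± 8.66 in Mettl5 KO and 296 ± 3.82 in WT, with a log2 fold change of 0.08 that turned to -0.07 at equal totals and was not called with TMM, the TPM column or the chromosome shift, or without Mettl5 KO replicate 2 or WT replicate 1. Eif4a3 is a relative that works in the exon junction complex. It averaged 175 ± 2.60 and 182 ± 3.29, and its log2 fold change of 0.03 was not called, became -0.13 at equal totals and, since it is also on chromosome 11, 0.46 with chromosome centring.

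Cap-binding proteins and their inhibitors did not move as one group. Eif4e, the general cap-binding protein, stood at 309, 297 and 301 on the TPM scale in Mettl5 KO libraries, against 261, 276 and 267 in WT libraries (log2 fold change 0.25, 0.09 at equal totals, and 0.07 and not called with the chromosome shift). Eif4e2, or 4EHP, which binds caps without eIF4G and represses translation, stood at 179, 180.3 and 174 in Mettl5 KO, against 140.1, 155 and 143 in WT (log2 fold change 0.34, and 0.10 and not called with chromosome centring). Neither gene overlapped between genotypes. Eif4e3, on chromosome 6, stood at 1.68, 1.71 and 1.72 in Mettl5 KO, against 2.32, 2.10 and 2.17 in WT, and its log2 fold change of -0.31 became 0.02 with chromosome centring and -0.03 with the chromosome shift, neither of them called. Eif4e1b, an oocyte form, was at 0.399 ± 0.0765 and 0.412 ± 0.141 and was not called.

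The 4E-BPs hold eIF4E away from eIF4G until mTORC1 phosphorylates them. Eif4ebp1 stood at 209, 202 and 212 on the TPM scale in Mettl5 KO libraries, against 298, 272 and 289 in WT libraries (log2 fold change -0.41, SE 0.0360, limma adjusted p 7.68e-06). Eif4ebp2 stood at 57.9, 57.8 and 57.8 in Mettl5 KO, against 54.0, 51.9 and 55.7 in WT (log2 fold change 0.15, -0.00 at equal totals and 0.05 under both chromosome settings, none of these called). The log2 ratio of Eif4ebp2 to Eif4ebp1 was -1.85, -1.80 and -1.88 in Mettl5 KO libraries, against -2.46, -2.39 and -2.38 in WT libraries, a difference of 0.57. Eif4ebp1 is on chromosome 8, where the median of all genes was -0.38, and its own value became 0.03 with chromosome centring and -0.04 with the chromosome shift, neither of them called. Eif4enif1, which carries eIF4E into the nucleus and is also called 4E-T, averaged 49.9 ± 1.81 in Mettl5 KO and 66.5 ± 0.816 in WT (SD, n = 3 each, log2 fold change -0.34). It is on chromosome 11 and became 0.09 and 0.06 under the 2 chromosome settings, neither of them called. Eif4ebp3, at 0.508 ± 0.0846 and 0.622 ± 0.195, was not called.

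**Figure D3:**
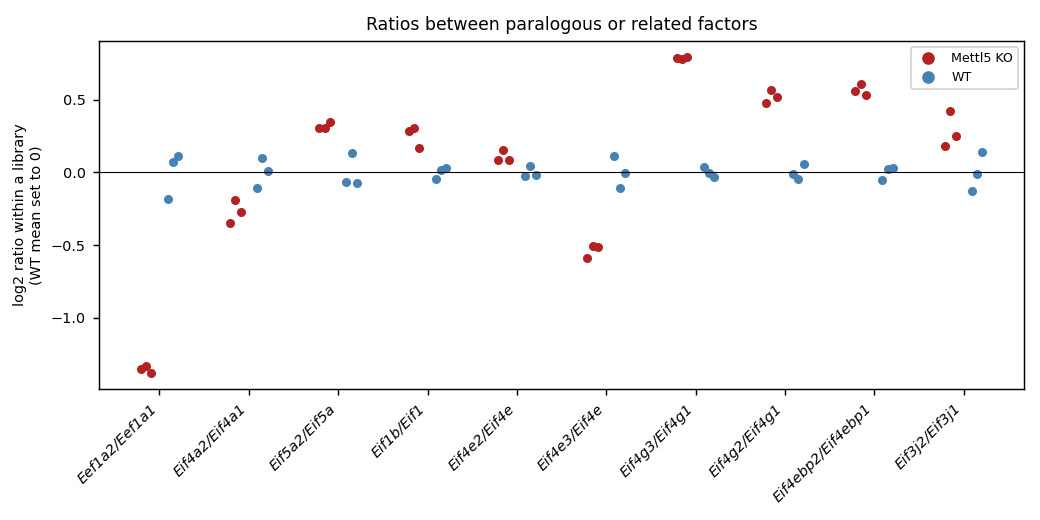
Log2 ratio of 2 related factor genes within each library on the TPM scale, with the WT mean of each pair set to 0; each point is a library, Mettl5 KO in red and WT in blue. None of the 10 pairs overlaps between genotypes, and the differences run from -1.36 for Eef1a2 to Eef1a1 up to 0.79 for Eif4g3 to Eif4g1.

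Ratios within a library are free of library scaling, and in all 10 pairs compared they did not overlap between genotypes (exact permutation p = 0.100 each, also when adjusted over the pairs, the smallest 3 against 3 libraries allow). Lack of overlap was common in these data, since 32.5% of all single genes tested were without overlap and higher and 35.7% without overlap and lower; ratios of other gene pairs were not computed. The log2 ratio of Eef1a2 to Eef1a1 was -13.93 ± 0.0239 in Mettl5 KO and -12.57 ± 0.157 in WT (SD, n = 3 each). That of Eif4e2 to Eif4e differed by 0.11 and that of Eif4e3 to Eif4e by -0.54. In 5 of the pairs 1 gene lay on chromosome 6, 8 or 11, and those ratios carry the difference between chromosomes.

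The eIF3 complex, the large scaffold that holds the small subunit and the messenger RNA together, was mostly higher: of its 14 genes, 12 were higher, none was lower, and Eif3i and Eif3j1 were not called, where 33.6% of all genes tested were higher. The median log2 fold change was 0.18, and at equal totals it was 0.02 with 5 higher and 3 lower, where 26.1% and 37.8% of all genes were called. Chromosome centring gave 8 higher and 3 lower, and the chromosome shift 9 and 1. The genes made up 0.391%, 0.389% and 0.391% of all TPM in Mettl5 KO libraries, against 0.369%, 0.362% and 0.367% in WT libraries. Eif3l stood apart from the others, at 322, 326 and 326 on the TPM scale in Mettl5 KO, against 222, 216 and 222 in WT (log2 fold change 0.62, SE 0.0233, limma adjusted p 2.43e-08). Eif3k, with which Eif3l forms a pair at the edge of the complex that is dispensable in the worm Caenorhabditis elegans, was the most abundant subunit. It stood at 677, 662 and 678 in Mettl5 KO, against 592, 575 and 601 in WT (log2 fold change 0.26).

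Eif3h, Eif3f and Eif3c rose by 0.38, 0.30 and 0.29, and with Eif3k and Eif3l they were called higher under all 16 alternatives. Eif3h and Eif3f encode the paired MPN-domain subunits. Eif3b, Eif3d, Eif3e and Eif3g rose by 0.22, 0.16, 0.19 and 0.16, and all 4 lost their call at equal totals (0.06, 0.00, 0.03 and 0.01), as did Eif3b with chromosome centring (0.07). Eif3a, the largest subunit, averaged 148 ± 2.79 in Mettl5 KO and 141 ± 1.60 in WT (log2 fold change 0.13, -0.03 at equal totals and with chromosome centring and 0.02 with the chromosome shift, not called in any of the 3). Eif3m differed by 0.09 on the log2 scale, a value of -0.07 (called lower) at equal totals and -0.00 with the chromosome shift, and was not called with TMM or the TPM column, or without Mettl5 KO replicate 1 or 3 or WT replicate 3. Eif3i, at 430.4 ± 9.45 in Mettl5 KO and 435 ± 13.9 in WT, differed by 0.05 on the log2 scale, which was not called (limma adjusted p 0.137) and became -0.10 at equal totals and -0.12 with chromosome centring, both called lower. The 13 genes other than Eif3j1 spanned 7.16-fold in mean level in Mettl5 KO and 7.26-fold in WT. The standard deviation of their log2 fold changes was 0.149, or 0.0962 without Eif3l. Eif3j1 and Eif3j2 are close copies that share reads, so the split between them (2.65 ± 0.191 and 93.9 ± 3.14 in Mettl5 KO, 3.04 ± 0.304 and 88.3 ± 3.95 in WT) is uncertain. Eif3j2 was called higher at 0.14 on the log2 scale, but had -0.02 at equal totals, -0.41 with chromosome centring and -0.09 with the chromosome shift. Eif3j1, not called at -0.14, was called lower at equal totals (-0.30) and under both chromosome settings (-0.23).

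**Figure D4:**
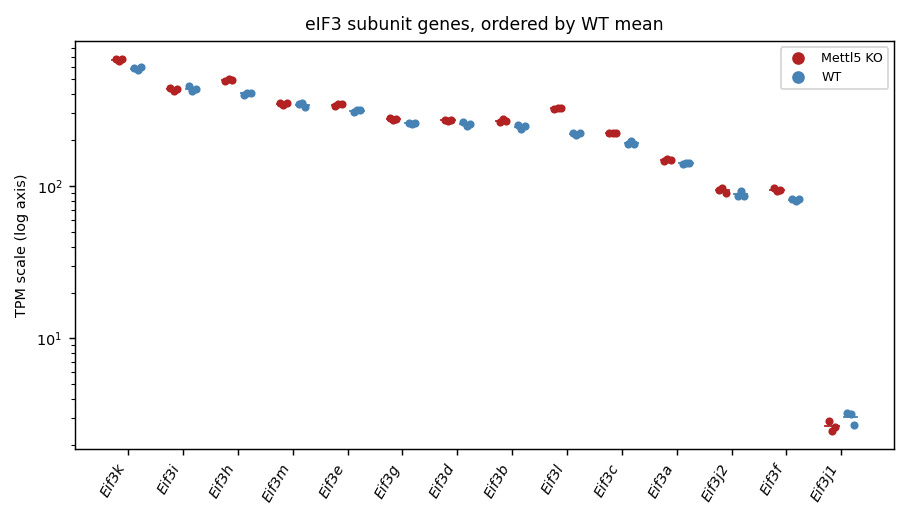
TPM-scale level (log axis) of the 14 eIF3 genes in each library, ordered by their WT mean; each point is a library, Mettl5 KO in red and WT in blue, with bars at the mean of 3. Eif3l shows the widest gap, 325 ± 2.52 in Mettl5 KO against 220.0 ± 3.66 in WT, and Eif3j1 lies far below the others.

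Genes of start codon selection went both ways. Eif1, which guards start codon fidelity, stood at 859.9, 864 and 892 on the TPM scale in Mettl5 KO libraries, against 1039, 1100.3 and 1049 in WT libraries (log2 fold change -0.19, limma adjusted p 4.16e-04). It is on chromosome 11 and turned to 0.24 with chromosome centring and 0.21 with the chromosome shift, both called higher. Eif1b, its paralogue, was not called, at 37.5, 38.1 and 35.9 in Mettl5 KO and 36.1, 39.9 and 38.1 in WT (log2 fold change 0.04, and -0.12 and called lower at equal totals). Eif1a, an autosomal gene of the eIF1A family, averaged 175 ± 0.837 in Mettl5 KO and 132 ± 5.66 in WT. Its log2 fold change was 0.46, 0.23 with the chromosome shift and -0.09, not called, with chromosome centring. The gene lies on chromosome 18, where the median of all genes was 0.21, less than centring took off. Eif1ad, which encodes a nuclear protein with an eIF1A domain, rose by 0.27 and was called higher under every alternative.

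Of the eIF2 subunits included, Eif2s1, the alpha subunit whose phosphorylation slows initiation, averaged 208 ± 2.38 on the TPM scale in Mettl5 KO and 188 ± 5.78 in WT (SD, n = 3 each, log2 fold change 0.20, and 0.04 and not called at equal totals). Eif2s2, the beta subunit, was not called (log2 fold change 0.08, limma adjusted p 0.0630) and became -0.08 at equal totals, where it was not called either. Eif2a and Eif2d encode proteins that can bring initiator tRNA without eIF2. Eif2a stood at 143, 159.6 and 145 in Mettl5 KO libraries, against 106, 109 and 106 in WT libraries (log2 fold change 0.53, SE 0.0409, limma adjusted p 3.00e-06), with no overlap and a call under every alternative. Eif2d averaged 107 ± 1.85 in Mettl5 KO and 120.0 ± 5.43 in WT (log2 fold change -0.11, limma adjusted p 0.0204), and lost its call without Mettl5 KO replicate 2 (-0.10) or WT replicate 1 (-0.08) or 3 (-0.10).

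The subunits of eIF2B, the exchange factor that recharges eIF2, diverged: 3 were higher, 1 lower and 1 not called. Eif2b4, the delta subunit, stood at 62.2, 61.5 and 62.3 on the TPM scale in Mettl5 KO libraries, against 43.4, 48.1 and 46.3 in WT libraries (log2 fold change 0.51, SE 0.0432, limma adjusted p 5.75e-06). Eif2b1, the alpha subunit, averaged 54.6 ± 1.22 in Mettl5 KO and 45.8 ± 0.819 in WT (log2 fold change 0.33). Eif2b5, the catalytic epsilon subunit, went the other way, at 79.5, 74.9 and 75.2 in Mettl5 KO against 95.7, 90.3 and 91.1 in WT (log2 fold change -0.21, SE 0.0344, limma adjusted p 4.94e-04). None of these 3 genes overlapped between genotypes, and all 3 kept their calls under every alternative. Eif2b2, the beta subunit, had a log2 fold change of 0.22, with calls lost at equal totals, under both chromosome settings and with the TPM column (0.06 to 0.14). Eif2b3, the gamma subunit, had -0.05 and was not called, but was called lower at equal totals, under both chromosome settings and with the TPM column (-0.22 to -0.10).

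Of the 4 kinases of eIF2 alpha, Eif2ak3, which encodes PERK, the kinase that answers stress in the endoplasmic reticulum, had the largest fall of any factor gene before chromosomes were taken into account. It stood at 7.03, 6.74 and 6.35 on the TPM scale in Mettl5 KO libraries, against 11.0, 10.8 and 11.1 in WT libraries (log2 fold change -0.64, SE 0.0565, limma adjusted p 7.27e-06), with no overlap. The gene is on chromosome 6, and the fall was smaller but still called with chromosome centring (-0.31) and the chromosome shift (-0.36), where Eif4a2 (-0.71 and -0.55) and Eef1a2 (-0.70 in both) fell further. Eif2ak1, the heme-regulated kinase HRI, averaged 15.6 ± 0.498 in Mettl5 KO and 14.2 ± 0.127 in WT (log2 fold change 0.20, 0.04 and not called at equal totals, and 0.05 and not called with chromosome centring). Eif2ak2, the double-stranded RNA kinase PKR, overlapped between genotypes, at 8.92, 9.91 and 9.42 in Mettl5 KO and 8.06, 9.44 and 7.92 in WT. Its log2 fold change of 0.23 (limma adjusted p 0.0395) lost its call with TMM, the TPM column, equal totals and both chromosome settings, and without WT replicate 1 or 3 or Mettl5 KO replicate 2 or 3 (0.08 to 0.23). Eif2ak4, the amino acid sensor GCN2, was at 7.69 ± 0.224 in Mettl5 KO and 8.33 ± 0.320 in WT and was not called (log2 fold change -0.07, limma adjusted p 0.161), but was called lower at equal totals (-0.22) and under both chromosome settings (-0.15).

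At subunit joining, Eif5, the GTPase activator of eIF2, stood at 222, 229 and 219 on the TPM scale in Mettl5 KO libraries, against 166, 173 and 169 in WT libraries (log2 fold change 0.46, SE 0.0285, limma adjusted p 6.39e-07). Eif6, which keeps the large subunit apart until it is mature, stood at 187, 188 and 199.6 in Mettl5 KO, against 151, 133 and 148 in WT (log2 fold change 0.50, SE 0.0524, limma adjusted p 2.42e-05). Neither overlapped between genotypes, and both were called higher under every alternative. Eif5b, the joining GTPase itself, was not called (log2 fold change -0.03), at 38.5, 36.1 and 38.6 in Mettl5 KO and 40.3, 38.5 and 43.1 in WT, and was called lower at equal totals (-0.19) and with chromosome centring (-0.27). Eif5a, the hypusine-bearing factor that relieves stalled ribosomes, stood at 1321, 1293 and 1323 in Mettl5 KO, against 1650.0, 1582 and 1646 in WT (log2 fold change -0.25, limma adjusted p 2.35e-05). It is on chromosome 11 and turned to 0.18 and 0.15 under the chromosome settings, both called higher. Eif5a2, its rare isoform, was at 5.42, 5.31 and 5.57 in Mettl5 KO and 5.25, 5.76 and 5.19 in WT and was not called (log2 fold change 0.06).

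Of the 12 lower factor genes, 7 lie on 3 chromosomes singled out, with these results known, by a low median over all genes. The 8 factor genes on chromosomes 6, 8 and 11 had 7 lower and none higher, and their median log2 fold change was -0.28. All genes tested on these chromosomes had a median of -0.37, with 2229 of 4185 lower and 674 higher. The 57 factor genes elsewhere had 40 higher and 5 lower, with a median of 0.22. The 5 lower ones were Eif2d, Eef1a2, Eef1e1, Eif2b5 and Eif4a2. When each library was shifted, chromosome by chromosome, by the median difference of its genes from the WT mean, a setting chosen after seeing the data, the medians were 0.11 for these 8 genes and 0.12 for the other 57, and 35 factor genes were higher and 9 lower in all, with 32.1% and 28.7% of all genes. Centring log2 values on the median of each chromosome in each library gave 29 higher and 12 lower, with 30.1% and 29.8% of all genes. Which of the genotype and the chromosome background lies behind the levels of these 8 genes cannot be told apart here.

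**Figure D5:**
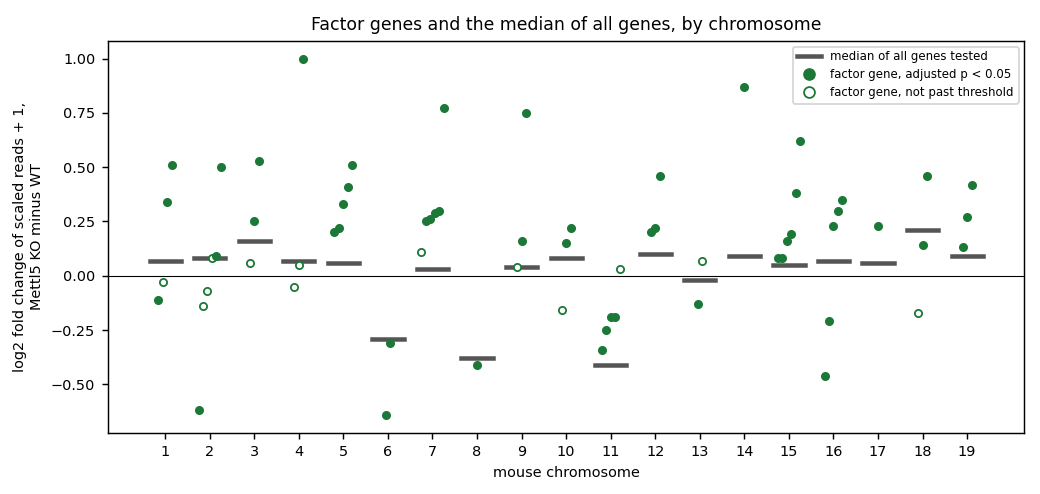
Log2 fold change (Mettl5 KO minus WT, scaled reads + 1) of each factor gene by autosome, with a grey bar at the median of all genes tested on that chromosome; filled points passed adjusted p under 0.05. The medians of chromosomes 6, 8 and 11 are -0.29, -0.38 and -0.41, and 7 of the 12 lower factor genes lie there.

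Across all 16 alternatives, 24 factor genes kept both their call and its direction, 19 of them higher and 5 lower (among all genes tested, 23.7% and 20.1%). The higher ones were Eef1a1, Eef1b2, Eef1g, Eef2, Eef1akmt1, Eif1ad, Eif2a, Eif2b1, Eif2b4, Eif3c, Eif3f, Eif3h, Eif3k, Eif3l, Eif4g2, Eif4g3, Eif4h, Eif5 and Eif6. The lower ones were Eef1a2, Eef1e1, Eif2ak3, Eif2b5 and Eif4a2. On the TPM scale the libraries did not overlap in 34 higher and 15 lower factor genes, where 32.5% and 35.7% of all genes tested did so.

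Several elongation factor messages are known to start with a terminal oligopyrimidine tract, a C followed by a run of C and T at the first base of the transcript, through which mTORC1 and LARP1 control their translation. The RefSeq promoter windows (GRCm38.p6) held 49 of the 65 genes, and the 15 bases on each side of the annotated start are shown for factor genes chosen, after their values were seen, to set rises beside falls and tracts beside none, with any such tract in capitals. The tract was taken as a C within 5 bases of the start followed by at least 4 bases that are C or T, searched on the transcribed strand only; the annotated start lies after the first 15 bases.
Eef1a1 (chr9:78481710-78481739, minus strand): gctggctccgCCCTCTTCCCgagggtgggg
Eif3l (chr15:79075208-79075237, plus strand): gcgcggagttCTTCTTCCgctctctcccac
Eif3f (chr7:108934400-108934429, plus strand): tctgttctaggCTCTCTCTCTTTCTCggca
Eif2b5 (chr16:20498802-20498831, plus strand): ccttcctctttCTCTCCCTgcaactacacc
Eif4g3 (chr4:137993440-137993469, plus strand): aaagctccgagcggccgtcctgccggactg
Eif4a2 (chr16:23107453-23107482, plus strand): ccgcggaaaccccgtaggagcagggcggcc
Eif2ak3 (chr6:70844500-70844529, plus strand): cgcagagcagacgcacggaaccctcgctca

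Tracts were found beside genes that rose (Eef1a1, Eif3l, Eif3f) and beside one that fell (Eif2b5), and none was found at Eif4g3, which rose, or at Eif4a2 and Eif2ak3, which fell. Of the 49 factor genes, 10 had a tract (20.4%), against 19.7% of the 27025 genes with a RefSeq promoter. None was found at the elongation factor genes Eef1b2 and Eef2, and Eef1d and Eef1g had no window. The share thus describes these windows and does not give how many factor messages start with such a tract. The 10 had a median log2 fold change of 0.23, with 7 higher and 2 lower, and the other 39 had 0.16, with 24 higher and 8 lower. An annotated start can differ from the start used in these cells, which was not measured. A tract in capitals, that of Eef1a1 included, may therefore lie outside the transcript, and one at the used start may be missed.

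Factor genes also host small RNAs, which were looked at after their values were seen. Listed small nucleolar RNAs (snoRNAs), which guide ribosomal RNA modification and lack a polyA tail, lay inside 6 of the 65 genes. Of these 11 snoRNAs, 7 were lower in Mettl5 KO and none was higher, where 28.9% of all genes tested were lower and 33.6% higher. The share among snoRNAs outside the factor genes was not computed. Snora41, inside Eef1b2, stood at 204, 153 and 166 on the TPM scale in Mettl5 KO libraries, against 405, 415 and 363 in WT libraries, while its host was higher. The other snoRNA inside Eef1b2, Gm26457, was not called (log2 fold change 0.37). Gm26158 inside Eif3a (-0.26) and Gm23262 inside Eif4g2 (-0.49) were not called either. Snora81, inside Eif4a2, was listed at 0 in all 3 Mettl5 KO libraries and at 14.0, 29.5 and 38.3 in WT. The other 2 snoRNAs inside Eif4a2 and all 3 inside Eif4a1 were lower too, as were both hosts, and Snord37 inside Eef2 was not called (log2 fold change 0.14). Eif4a1 is on chromosome 11, where the median of all genes was -0.41, and values of its snoRNAs under the chromosome settings are not given here. Reads of snoRNAs in a polyA library depend on how RNA was selected, and that part was not tested. Another listed gene overlapped 28 of the factor genes, in 19 cases on the opposite strand, and the sources used here do not give whether counting used strand.

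The genes around the factors were described with lists made for this purpose. Of 70 related translation genes, 37 were higher and 25 lower, where 33.6% of all genes tested were higher and 28.9% lower, and their median log2 fold change was 0.11. With libraries at equal totals the counts were 18 and 33, where 26.1% and 37.8% of all genes were called. These shares over all genes also apply to the small lists that follow, and every list had fewer higher calls at equal totals. Of 9 genes for hypusine, the modification of eIF5A, and for the making and control of its polyamine source, 7 were higher and 2 lower (5 and 2 at equal totals). They include the antizymes, which restrain polyamine supply, with Oaz1 higher (log2 fold change 0.31) and Oaz2 lower (-0.12). Amd1 and Odc1, which make polyamine precursors, averaged 108 ± 1.86 and 707 ± 1.46 on the TPM scale in Mettl5 KO and 70.0 ± 0.876 and 515 ± 7.94 in WT (SD, n = 3 each, log2 fold changes 0.69 and 0.53). Sms, spermine synthase, rose by 0.44. Dhps, the first hypusine enzyme, had a log2 fold change of -0.27. It lies on chromosome 8 and turned to 0.17 and 0.10, both called higher, under the chromosome settings. Of 7 genes for diphthamide, the modification of eEF2, 6 were higher and 1 lower, or 3 and 1 at equal totals and 4 and 0 under both chromosome settings, with Dph3, Dph6 and Dph5 up by 0.46, 0.45 and 0.39, and Dph1, on chromosome 11, was at -0.35, or 0.06 and not called with the chromosome shift.

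A list of poly(A)-binding proteins, their partners and other initiation proteins had 4 of 10 higher and 5 lower (3 and 6 at equal totals). The lower ones included Dhx29 (log2 fold change -0.29) and Abcf1 (-0.12), which are not partners of poly(A)-binding proteins. Paip1, which links PABP to the eIF4A helicase, averaged 49.7 ± 1.26 on the TPM scale in Mettl5 KO and 26.3 ± 0.374 in WT (SD, n = 3 each, log2 fold change 0.97). Paip2b, an inhibitor of PABP on chromosome 6, fell by 0.71, or by 0.44 with the chromosome shift, and Larp1, the repressor of terminal oligopyrimidine messages on chromosome 11, was at -0.40, or 0.01 and not called with that shift. Genes of mTORC1, S6 kinase and MNK signalling had 6 of 12 higher and 5 lower, a balance that turned to 3 and 6 at equal totals, with Akt1s1 at 0.57, Mlst8 at 0.67 and Tsc1 at -0.41. The phosphatase subunits that restore eIF2 alpha had 3 of 5 higher and 2 lower, or 1 and 2 at equal totals. Ppp1r15a (GADD34), the stress-induced one, rose by 0.47, while Ppp1r15b, the constitutive one, and Ppp1cc had log2 fold changes of -0.29 and -0.30. Release and recycling genes had 6 of 11 higher and 2 lower, a balance that turned to 2 and 5 at equal totals and was even under both chromosome settings. Mcts1, a recycling factor, and Pelo, which rescues stalled ribosomes, rose by 0.64 and 0.52, and Abce1, the recycling ATPase on chromosome 8, was at -0.25, which turned to 0.12 (called higher) with the chromosome shift.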

How the data were processed

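PolyA RNA of 3 Mettl5 KO and 3 WT libraries was analysed, grouped by sample title. The submitters' processing notes name kallisto and sleuth, with mm10 as the build; their versions, the annotation and the use of strand were not stated in what was used here. The deposited values are 2 signal columns per gene, scaled reads per base and TPM, both rescaled between libraries by the authors per the file headers and sums. They are not whole counts, so a limma model (version 3.58.1 in R 4.3.3) with its variance trend on mean level took log2(scaled reads + 1) for each of 24183 genes, those averaging 1 or more, with Benjamini-Hochberg adjustment over all of them. The fit was tested on simulated data. GENCODE M21 named 23846 of 24191 identifiers; 345 had no match. TMM factors were computed from their published formula. The 16 alternatives were equal totals, TMM, the TPM column (mean of at least 0.02), pseudocounts of 0.1 and 10, a minimum mean of 10, no filter, a replicate block, 2 chromosome settings and leaving out each of 6 libraries; the chromosome shift and the count of calls that held in all 16 were added after seeing the data. Exact tests used scipy 1.17.1; tables and plots used pandas 2.3.3, numpy 2.4.6 and matplotlib 3.10.9 in Python 3.11.15. Per-library values were set for the 8 largest rises and falls, the 10 most abundant genes and both genes of each pair, and up to 3 genes with the smallest p-values per related list. Several others were named after their values were seen: Dhps, Oaz1, Oaz2, Dph1, Dhx29, Abcf1, the cell type markers and the snoRNAs. Members and lists were chosen with earlier results of these data known.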

Additional observations from a re-analysis of the deposited data

How the results depend on the processing

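Equal totals and the chromosome settings changed the most calls. Rescaling libraries to equal totals changed the factor genes called from 40 higher and 12 lower to 25 higher and 22 lower, and the related translation genes from 37 higher to 18; chromosome centring gave 24 higher related genes. At equal totals 9 factor genes changed direction with a call in at least 1 of the 2 fits: Eef1d (-0.07), Eif1b (-0.12), Eif3a (-0.03), Eif3i (-0.10), Eif3j2 (-0.02), Eif3m (-0.07), Eif4a3 (-0.13), Eif4b (-0.07) and Eif4ebp2 (-0.00). With chromosome centring 11 did so: Eif1 (0.24), Eif1a (-0.09), Eif3a (-0.03), Eif3i (-0.12), Eif3j2 (-0.41), Eif4a1 (0.24), Eif4e3 (0.02), Eif4ebp1 (0.03), Eif4enif1 (0.09), Eif4g1 (-0.02) and Eif5a (0.18). With the chromosome shift, chosen after seeing the data, the reversals were Eif1 (0.21), Eif3j2 (-0.09), Eif3m (-0.00), Eif4a1 (0.21), Eif4enif1 (0.06) and Eif5a (0.15). The cause was not tested. Pseudocounts of 0.1 and 10 and other filters changed no factor gene's call. Leaving out 1 library gave 37 to 43 higher and 11 to 12 lower factor genes. Eef1akmt2 (0.13), Eif2s2 (0.11) and Eif5a2 (0.11) were called higher without WT replicate 2, and Eif3j1 (-0.23) lower without WT replicate 3. Related translation genes had 30 to 36 higher.

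Taken over all genes, same-numbered replicates did not deviate together across genotypes (correlations 0.006643, 0.01082 and 0.03164). This does not exclude a pairing seen only in some genes. Eif4a1 had the same replicate order in both genotypes, and its limma adjusted p went from 0.00361 to 4.95e-05 with a replicate block. That of Eef1a1 went from 3.34e-07 to 6.44e-07. With the block 42 factor genes were higher and 12 lower, the added ones being Eif2s2 and Eif3i. By correlation, Mettl5 KO replicate 2 was nearest to WT replicate 1 rather than to its own number. The files give no read depth, so genes under 1 on the TPM scale (Eif4e1b, Eif4ebp3, Eef1akmt3 and, in Mettl5 KO, Eef1a2) are the least certain.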

Other observations

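Further lists bear on translation outside the cytosolic factors. Of 9 mitochondrial translation factor genes measured out of 10 listed, 3 were higher and 5 lower in Mettl5 KO (median log2 fold change -0.21, against 0.00 over all genes tested, of which 33.6% were higher and 28.9% lower). At equal totals and with chromosome centring the counts were 1 higher and 6 lower. Mtif2, the mitochondrial initiation factor on chromosome 11, averaged 23.5 ± 0.308 on the TPM scale in Mettl5 KO and 36.8 ± 0.557 in WT (SD, n = 3 each), a log2 fold change of -0.58 that was -0.18 and still called with the chromosome shift. Mtrf1l, a mitochondrial release factor, averaged 7.42 ± 0.105 in Mettl5 KO and 4.47 ± 0.388 in WT (log2 fold change 0.81), and Gfm2, a recycling factor, had -0.24.

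Of 7 genes for selenocysteine insertion, 2 were higher and 3 lower, with the same shares over all genes. At equal totals and with chromosome centring none was higher and 5 were lower. Eefsec, the elongation factor that delivers selenocysteinyl-tRNA, averaged 12.6 ± 0.308 on the TPM scale in Mettl5 KO and 27.7 ± 1.91 in WT (SD, n = 3 each), a log2 fold change of -1.06 (SE 0.0593, limma adjusted p 3.37e-07). Its symbol lacks the digit that the factor genes share, and on scaled reads its fall exceeded that of any of them. It lies on chromosome 6, and the value was -0.78 and still called with the chromosome shift. Pstk, the kinase that prepares the tRNA, had -0.44 and Sephs2, which makes selenophosphate, had -0.15.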
